A study of Mus musculus with 8 samples.

Results

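The genes described here are 8 members of solute carrier family 5 that carry sugars, inositol, monocarboxylates, or vitamins, out of 55367 genes listed in the kidney counts. They were chosen by name: *Slc5a1*, *Slc5a2*, *Slc5a6*, *Slc5a8*, *Slc5a9*, *Slc5a10*, *Slc5a11*, and *Slc5a12*. All 8 passed the filter on low counts. Whole-kidney RNA-Seq compared 4 *c-Maf*ΔTAM (knockout) kidneys with 4 kidneys of *c-Maf* fl/fl controls, all C57BL/6J, with a labelled age of 8 weeks. *c-Maf*ΔTAM mice are homozygous for floxed *c-Maf* and carry CAG-Cre-ER TM, a tamoxifen-activated Cre driven by the ubiquitous CAG promoter, so recombination was not limited to the kidney or to 1 cell type. The *c-Maf* fl/fl controls carry the same floxed alleles without Cre, and both genotypes received tamoxifen (TAM); the study's text links the comparison to TAM(10d), and its methods give no time after TAM for these libraries. The question of the comparison is which kidney transcripts differ once c-Maf, a basic leucine zipper transcription factor, is removed in the adult.

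Members of this family couple the inward movement of sodium to the uptake of a solute, and draw on the sodium gradient that the cell maintains. In the kidney most of them sit in the brush border of the proximal tubule and recover filtered solutes from the urine. SGLT2 takes up most of the filtered glucose in the early proximal tubule, SGLT1 takes up what remains further along, and SMCT1 and SMCT2 take up lactate and other monocarboxylates. A whole kidney mixes all of these segments, and a lower level per kidney cannot tell fewer cells of a type from less RNA per cell.

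The libraries held between 16649129 and 22990257 counts, and levels are given as TMM-normalized CPM, a scale on which each library has the same effective size. Values by mouse follow the order of mice 1 to 4. *Maf* was at 9.06, 34.5, 29.6, and 10.1 CPM in the *c-Maf*ΔTAM kidneys and between 305 and 380 CPM in the controls. The mice also differed in *Xist*, the noncoding RNA of the inactive X chromosome: *c-Maf*ΔTAM mouse 1 and control mice 3 and 4 had between 2 and 22 counts, and the other 5 mice had 17618 to 22387. The labels state no sex, so the 3 and 5 mice are called low-*Xist* and high-*Xist* mice. *c-Maf*ΔTAM mouse 1 also had the largest share of mitochondrial counts, 32.3%, against at most 25.5% in the other mice. The extract protocol in the labels mentions liver although the tissue label is kidney. The 10 early proximal tubule markers summed to between 12494 and 22569 CPM in every mouse, whereas the hepatocyte markers *Alb* and *Apoa1* reached at most 8.85 and 1.77 CPM and *Tat* was at 0 in 7 of 8 mice. *Apob* and *Cyp2e1*, the other abundant genes of the hepatocyte list, reached 710 and 1398 CPM. *Serpina1a* measured 1.42, 9.96, 14.5, and 13.6 CPM in the knockouts and at most 4.93 CPM in the controls (log2 fold change 1.99). None of the 4 tested genes of that list passed the test between the genotypes over all mice. *Alb* did not overlap between the genotypes, and with *Xist* class as a second factor *Alb* (-2.31) and *Cyp2e1* (1.38) passed in opposite directions (edgeR adjusted *P* = 2.67e-05 and 2.03e-07).

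Of the 8 members, *Slc5a2* and *Slc5a12* fell in *c-Maf*ΔTAM kidneys, none rose, and the other 6 did not pass the test (edgeR quasi-likelihood, adjusted *P* under 0.05). Over all 20149 genes tested, 2.16% passed it, 1.58% lower and 0.586% higher. The same 2 members had values that did not overlap between the genotypes, as did 9.79% of all genes tested. The median log2 fold change was -0.16 over the 8 members and 0.0027 over all genes tested. In 6 members, *Slc5a12* among them and *Slc5a1* and *Slc5a2* not, low-*Xist* and high-*Xist* mice did not overlap within either genotype and differed in the same direction in both, as in 27.2% of all genes tested; 1 low-*Xist* mouse stands against 3 in the knockouts and 2 against 2 in the controls.

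**Figure D1:**
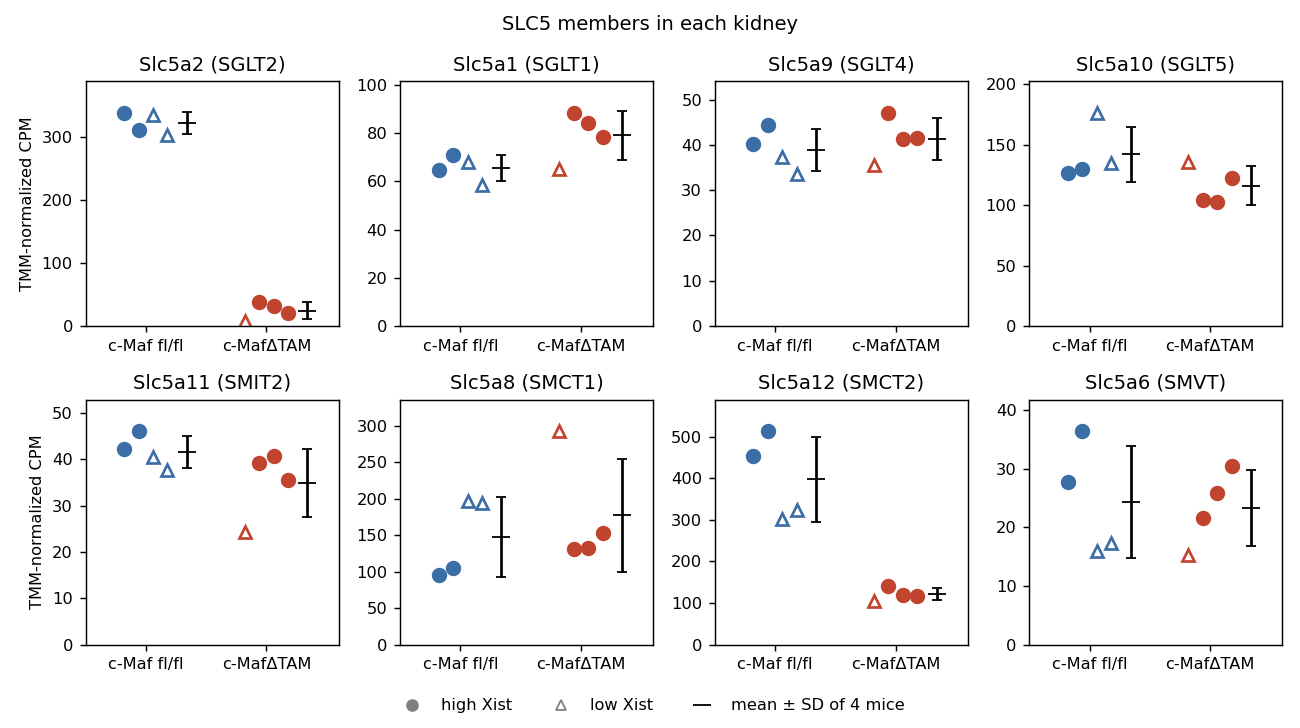
TMM-normalized CPM of each SLC5 member (vertical axes, each from 0) in 4 c-Maf fl/fl and 4 c-MafΔTAM kidneys; filled circles are high-Xist mice, open triangles low-Xist mice, and bars the mean ± SD. Slc5a2 and Slc5a12 are separated by genotype, and within each genotype low-Xist and high-Xist mice do not overlap for 6 of the 8 members, that is all but Slc5a1 and Slc5a2.

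*Slc5a2* encodes SGLT2 and lies on the forward strand at chr7:128265657-128272430 of GRCm38. The control kidneys measured 338, 311, 334, and 302 CPM, and the *c-Maf*ΔTAM kidneys 8.19, 38.5, 31.2, and 20.2 CPM. The control kidneys varied little, with a mean of 321 ± 17.3 (SD, n = 4), and every *c-Maf*ΔTAM kidney lay far below them at a mean of 24.5 ± 13.2. The log2 fold change was -3.71 (SE 0.461, edgeR adjusted *P* = 0.0101), which is a 13.1-fold lower level. Relative to their mean the *c-Maf*ΔTAM kidneys differed more among themselves, from 8.19 to 38.5 CPM (161 to 750 counts), although their SD in CPM was the smaller. The same 2 mice with the least *Slc5a2*, mice 1 and 4, had the least *Maf*. Within the 5 high-*Xist* mice the log2 fold change was -3.44 (SE 0.286, edgeR adjusted *P* = 0.0112). In that fit of 3 knockouts and 2 controls *Maf* itself was at -3.87 and did not pass (edgeR adjusted *P* = 0.108). A miss in this small fit therefore does not show that a change is absent. *c-Maf*ΔTAM mouse 1, the only low-*Xist* mouse of its genotype, had the lowest *Slc5a2* level, and the test of whether the genotype effect differed between low-*Xist* and high-*Xist* mice gave a log2 difference of -1.84 (SE 0.477, edgeR adjusted *P* = 0.387); 0.194% of all genes passed that test, and none of the members did. Of the exonic bases of *Slc5a2*, 20.6% also lie in exons of *BC017158*, and reads there were left uncounted. *BC017158* itself had a log2 fold change of -0.13 (SE 0.0934, edgeR adjusted *P* = 0.596).

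*Slc5a1* encodes SGLT1 (chr5:33104219-33162870, forward strand) and did not follow *Slc5a2*. The control kidneys measured 64.9, 71.0, 68.2, and 58.6 CPM, against 65.0, 88.4, 84.3, and 78.6 CPM in the knockouts. The 3 high-*Xist* *c-Maf*ΔTAM kidneys were above all controls, and *c-Maf*ΔTAM mouse 1 lay among the controls. The log2 fold change was 0.27 (95% CI 0.039 to 0.50), and edgeR's adjusted *P* over all genes was 0.272. Among the high-*Xist* mice it was 0.30 (SE 0.0871, edgeR adjusted *P* = 0.0783). The log2 ratio of *Slc5a2* to *Slc5a1* went from 2.29 ± 0.113 in control to -1.89 ± 0.789 in *c-Maf*ΔTAM kidneys (SD, n = 4 each), so that *Slc5a2* was the higher of the pair in every control and the lower of the pair in every *c-Maf*ΔTAM kidney by counts. That difference of -4.18 had an adjusted *P* of 0.0286 in a two-sided exact permutation test, the smallest value that 70 assignments of the mice can give.

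The genes that work with SGLT2 and SGLT1 were given by a list of 7, of which 2 fell and none rose, beside 1.58% and 0.586% of all genes tested. Like the other lists, it was chosen with earlier results of these data known. *Pdzk1ip1*, which encodes MAP17, the small membrane protein that SGLT2 needs for activity, measured 247, 277, 324, and 301 CPM in the controls, against 180, 210, 189, and 174 CPM in the knockouts. Every *c-Maf*ΔTAM kidney was below every control (log2 fold change -0.61, SE 0.104, edgeR adjusted *P* = 0.00972). *Slc2a2*, which encodes GLUT2, the exit route of glucose on the blood side of the early tubule, had a log2 fold change of -1.13 (SE 0.168, edgeR adjusted *P* = 0.00620). The levels that remained, relative to the controls, were 7.63% for *Slc5a2*, 45.7% for *Slc2a2*, and 65.6% for *Pdzk1ip1*. The partners that did not pass included *Atp1b1* (1857 and 1976 CPM in knockout and control kidneys, log2 fold change -0.089), *Fxyd2* (-0.15), the scaffold gene *Pdzk1* (-0.35), and *Slc2a1*, which encodes GLUT1 (0.11). Transcription factors known to act on family members included 5 that were tested, and none passed: *Hnf4a* was at 749 and 863 CPM (log2 fold change -0.20, edgeR adjusted *P* = 0.386).

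*Slc5a12* encodes SMCT2, a low-affinity carrier of lactate and other monocarboxylates (chr2:110597298-110647779, forward strand). The control kidneys measured 454, 513, 302, and 324 CPM, and the *c-Maf*ΔTAM kidneys 106, 142, 120, and 118 CPM. The lowest control was above the highest *c-Maf*ΔTAM kidney, and among the controls the 2 high-*Xist* mice were above the 2 low-*Xist* mice. The log2 fold change was -1.71 (SE 0.173, edgeR adjusted *P* = 0.000349), which leaves 30.5% of the control level. With *Xist* class as a second factor it was -1.80 (SE 0.0923, edgeR adjusted *P* = 3.37e-09), and low-*Xist* mice had a log2 difference of -0.47 from high-*Xist* mice (SE 0.0944, adjusted *P* = 0.00347). *Slc5a12* fell less than *Slc5a2*: the log2 ratio of *Slc5a2* to *Slc5a12* went from -0.28 ± 0.379 to -2.51 ± 0.833 (SD, n = 4 each; difference -2.23, exact permutation test, adjusted *P* = 0.0286).

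*Slc5a8* encodes SMCT1, the high-affinity monocarboxylate carrier of the later proximal tubule (chr10:88885992-88929515, forward strand), and its values did not follow those of *Slc5a12*. The control kidneys measured 95.7, 105, 196, and 194 CPM, and the *c-Maf*ΔTAM kidneys 292, 131, 132, and 152 CPM. The 3 highest values of all 8 mice were those of the 3 low-*Xist* mice. Low-*Xist* mice had 1.95-fold the level of high-*Xist* mice among control kidneys and 2.11-fold among *c-Maf*ΔTAM kidneys, and within each class the *c-Maf*ΔTAM kidneys were above the controls. Over all mice the genotype difference was 0.26 on the log2 scale (95% CI -0.60 to 1.13, edgeR adjusted *P* = 0.818), and without *c-Maf*ΔTAM mouse 1 it was -0.088. With *Xist* class as a factor, *Slc5a8* rose by 0.51 (SE 0.0741, edgeR adjusted *P* = 0.000301), in a fit where 2.98% of all genes were called higher. Among the 5 high-*Xist* mice alone it rose by 0.47 (SE 0.0923, edgeR adjusted *P* = 0.00798), where 1.53% of genes were called higher and 2.22% lower. The effect of *Xist* class itself was 1.01 (SE 0.0749, edgeR adjusted *P* = 1.25e-07), and 12.2% of all genes passed that test. Markers of the late proximal tubule moved with *Xist* class as *Slc5a8* did: 4 of the 6 were higher in low-*Xist* mice and none lower. *Slc7a13* lay between 204 and 324 CPM in low-*Xist* and between 0.411 and 1.08 CPM in high-*Xist* mice, and *Acsm3* between 387 and 545 CPM against 2.03 to 6.82 CPM. The part of these markers in the *Slc5a8* result was not tested. Whatever else the 3 low-*Xist* mice share cannot be told apart from *Xist* class.

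**Figure D2:**
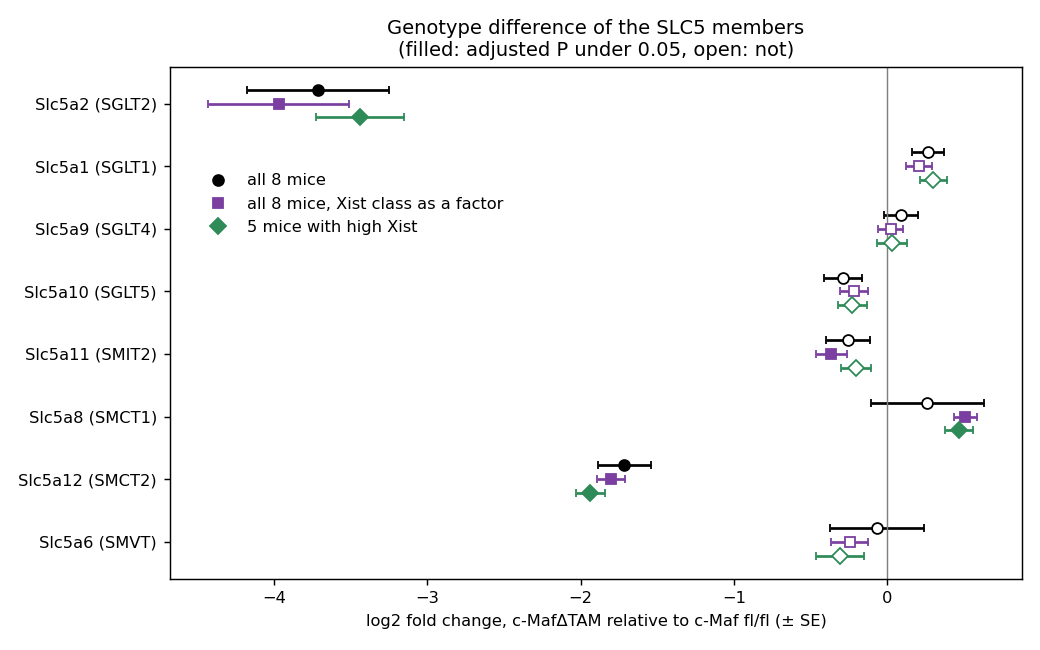
Log2 fold change of each member in c-MafΔTAM relative to c-Maf fl/fl kidneys (horizontal axis, bars are SE) over all 8 mice, over all 8 with Xist class as a factor, and over the 5 high-Xist mice; filled symbols have an edgeR adjusted P under 0.05. Slc5a2 and Slc5a12 are filled and negative in all 3 fits, and Slc5a8 is filled and positive in the 2 fits that take Xist into account.

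Among 12 other genes of monocarboxylate and urate transport, 1 rose and 1 fell over all mice, with a median log2 fold change of 0.044. With *Xist* class as a factor *Slc16a4* also rose (0.29, edgeR adjusted *P* = 0.0298). *Slc16a7*, which encodes the monocarboxylate carrier MCT2, rose from a control level of 224 ± 20.2 CPM to 326 ± 23.2 (SD, n = 4 each; log2 fold change 0.54, SE 0.0947, edgeR adjusted *P* = 0.0107). *Slc16a1*, which encodes MCT1, fell from 24.6 ± 5.19 to 15.0 ± 1.31 CPM (log2 fold change -0.71, SE 0.146, edgeR adjusted *P* = 0.0280). The call for *Slc16a1* did not hold in 5 of the 8 fits that left out 1 mouse, whereas that for *Slc16a7* held in all 8. Among the 5 high-*Xist* mice *Slc16a1* did not pass either (-0.47, edgeR adjusted *P* = 0.0649), though with *Xist* class as a factor it did (-0.60, edgeR adjusted *P* = 0.00252). The most abundant genes of this list did not pass: *Slc22a12*, the urate carrier URAT1, lay between 429 and 641 CPM in knockout and between 361 and 665 CPM in control kidneys, and *Bsg*, the chaperone of MCT1, was at 317 ± 15.3 and 331 ± 25.9 CPM. Lactate dehydrogenase genes *Ldha* and *Ldhb* had log2 fold changes of 0.10 and -0.032.

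*Slc5a9* and *Slc5a10* encode SGLT4 and SGLT5, which carry mannose and fructose as well as other sugars. *Slc5a10* (chr11:61672781-61720826, reverse strand) measured 127, 130, 176, and 135 CPM in the controls and 136, 104, 103, and 123 CPM in the knockouts. The groups overlapped through *c-Maf*ΔTAM mouse 1, and in both genotypes the low-*Xist* mice were above the others. The log2 fold change was -0.29 (95% CI -0.57 to -0.012, edgeR adjusted *P* = 0.335). *Slc5a10* shares 16.8% of its exonic bases with *Fam83g* and *Grap*, and reads there were not counted. *Slc5a9* (chr4:111875375-111902918, reverse strand) was between 33.5 and 44.5 CPM in control kidneys and between 35.5 and 47.0 CPM in *c-Maf*ΔTAM kidneys, so the groups overlapped almost wholly (log2 fold change 0.088, 95% CI -0.15 to 0.33). Of 8 other genes of fructose and mannose metabolism, only *Sord* passed the test: this sorbitol dehydrogenase, which makes fructose from sorbitol, averaged 522 ± 74.5 CPM in controls and fell to 298 ± 39.0 (SD, n = 4 each; log2 fold change -0.81, SE 0.126, edgeR adjusted *P* = 0.00567). The fructose carrier gene *Slc2a5* and the fructokinase gene *Khk* had log2 fold changes of -0.22 and 0.12.

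*Slc5a11* encodes SMIT2, which carries myo-inositol (chr7:123214780-123273253, forward strand). The control kidneys measured 42.3, 46.0, 40.6, and 37.7 CPM, and the *c-Maf*ΔTAM kidneys 24.4, 39.1, 40.8, and 35.5 CPM. *c-Maf*ΔTAM mouse 1 was far below the rest, mouse 4 was just below the lowest control, and mice 2 and 3 lay within the control range. The log2 fold change was -0.25 (95% CI -0.57 to 0.061, edgeR adjusted *P* = 0.473). With *Xist* class as a factor *Slc5a11* fell by 0.36 on the log2 scale (edgeR adjusted *P* = 0.0367), in a fit where 4.49% of all genes were called lower, but among the 5 high-*Xist* mice the value was -0.20 (adjusted *P* = 0.348), so the call was not made without the low-*Xist* mice. None of 5 other inositol genes passed over all mice, and with *Xist* class as a factor *Impa1* rose (0.28, edgeR adjusted *P* = 0.0482). *Miox*, the inositol oxygenase of the proximal tubule, was at 1158 ± 179 CPM in knockout and 1396 ± 104 CPM in control kidneys (SD, n = 4 each; edgeR adjusted *P* = 0.337), and the synthase gene *Isyna1* at 54.4 ± 8.49 and 48.5 ± 2.72 CPM.

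*Slc5a6* encodes SMVT, the carrier of biotin, pantothenate, and lipoate (chr5:31036036-31048924, reverse strand). The control kidneys measured 27.8, 36.4, 16.0, and 17.4 CPM, and the *c-Maf*ΔTAM kidneys 15.4, 21.6, 25.9, and 30.5 CPM. The 3 low-*Xist* mice had the 3 lowest values, and the genotypes overlapped over most of their range (log2 fold change -0.068, 95% CI -0.78 to 0.64). Low-*Xist* mice differed from high-*Xist* mice by -0.87 on the log2 scale (SE 0.129, edgeR adjusted *P* = 0.000295). Of its distinct 36-base transcript sequences, 27.7% also occur in other genes, most of them in *Gm6157*, and 9.92% of its exonic bases lie in exons of *Atraid*, where reads were left uncounted. The share of such sequences was 17.2% for *Slc5a2*, all with *BC017158*, and 12.6% for *Slc5a10*, all with *Fam83g*. Both are genes whose exons overlap those of the member, where reads were left uncounted. The share was at most 0.849% for the other 5 members. What shared sequence does to the counts of *Slc5a6*, *Slc5a2*, and *Slc5a10* was not measured. Of 14 genes of biotin and pantothenate use, *Pcx* alone passed over all mice, and with *Xist* class as a factor *Pccb* also fell (-0.25, edgeR adjusted *P* = 0.0481). *Pcx* encodes pyruvate carboxylase, a biotin-dependent enzyme of gluconeogenesis. It averaged 726 ± 91.0 CPM in controls and fell to 454 ± 35.6 (SD, n = 4 each, log2 fold change -0.68, SE 0.109, edgeR adjusted *P* = 0.00656). The pantothenate kinase gene *Pank1* was at 209 ± 115 CPM in knockout and 214 ± 77.8 CPM in control kidneys.

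**Figure D3:**
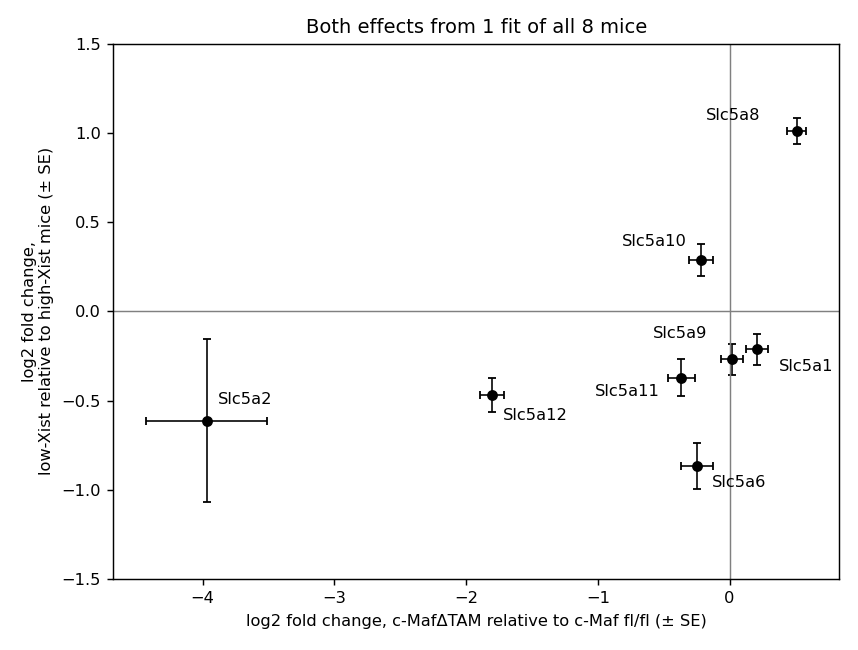
Log2 fold change by genotype (horizontal axis) and by Xist class (vertical axis) of each member, both from 1 edgeR fit of all 8 mice; bars are SE. Slc5a2 and Slc5a12 lie far to the left, Slc5a8 lies up and to the right (0.51 and 1.01), and Slc5a6 is the lowest point on the vertical axis among the 8 (-0.87).

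The 7 pathway lists together held 57 genes, of which 53 were tested, 1 rose, and 5 fell over all mice, with a median log2 fold change of -0.0054. Over all genes tested, 0.586% rose and 1.58% fell. The lists were chosen with earlier results of these data known, so these counts are not read as enrichment. With *Xist* class as a factor, *Slc5a4a* (1.70, edgeR adjusted *P* = 0.00183), *Slc16a4*, and *Impa1* also rose and *Pccb* also fell. In that fit 2.98% of all genes were called higher and 4.49% lower. The 5 family genes outside the 8 members were 1 of these lists, and 2 of them had enough counts to be tested. *Slc5a3*, which encodes the inositol carrier SMIT1, was at 764 ± 157 CPM in knockout and 646 ± 76.5 CPM in control kidneys (SD, n = 4 each; edgeR adjusted *P* = 0.509). *Slc5a4a*, which encodes SGLT3a, was low, with 1.03, 1.13, 3.75, and 1.88 CPM in the controls against 9.31, 3.65, 4.88, and 1.95 CPM in the knockouts. The genotypes overlapped and the test over all mice did not pass (log2 fold change 1.35, edgeR adjusted *P* = 0.320), but within the high-*Xist* mice *Slc5a4a* rose by 1.68 (SE 0.388, edgeR adjusted *P* = 0.0238). *Slc5a4b*, *Slc5a5*, and *Slc5a7* had at most 7 counts in any mouse.

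**Figure D4:**
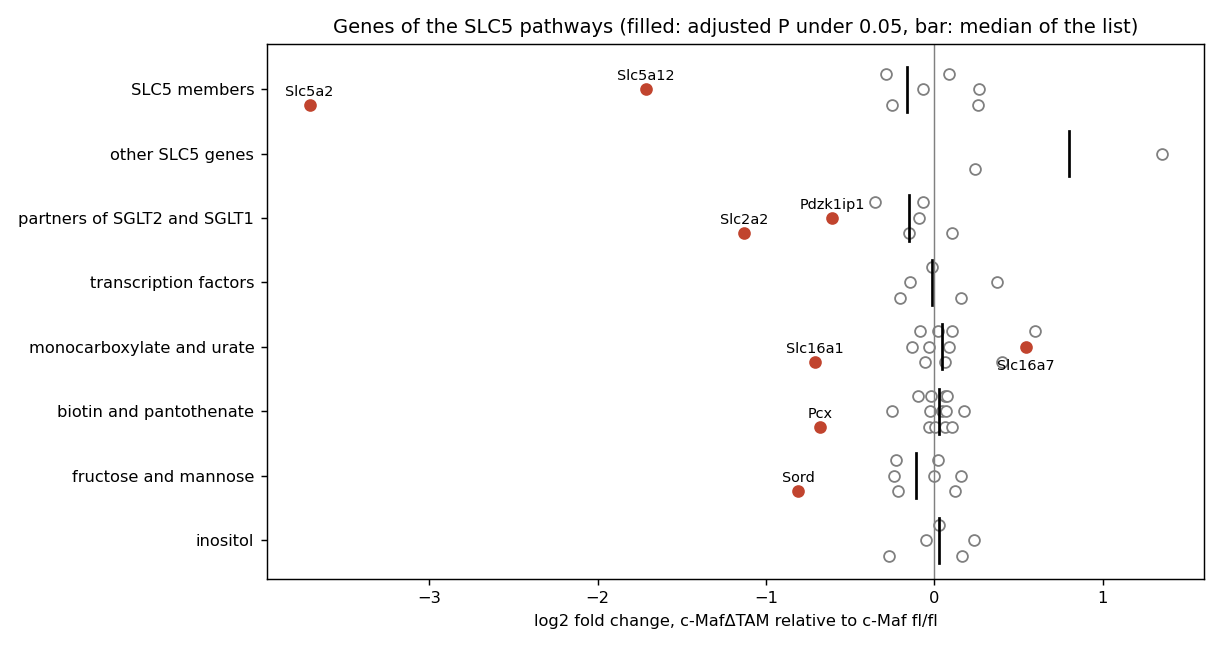
Log2 fold change of each tested gene (points) by list, with the list's median as a bar; filled points have an edgeR adjusted P under 0.05. Slc5a2 is the farthest filled point, Slc5a12 and Slc2a2 follow among the filled points, and Slc16a7 is the only filled point to the right of 0.

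Levels were compared between members as CPM per kb of exons, a length that keeps the bases shared with other genes, where reads were not counted, and so understates *Slc5a2*, *Slc5a10*, and *Slc5a6*. In control kidneys the order was *Slc5a2* (111 ± 5.96 CPM per kb), *Slc5a12* (98.1 ± 25.1), *Slc5a10* (60.0 ± 9.76), *Slc5a8* (27.7 ± 10.3), *Slc5a1* (16.0 ± 1.29), *Slc5a11* (15.1 ± 1.26), *Slc5a9* (7.50 ± 0.894), and *Slc5a6* (6.11 ± 2.40; SD, n = 4 each). The ranges overlapped between *Slc5a2* and *Slc5a12*, between *Slc5a12* and *Slc5a10*, between *Slc5a1* and *Slc5a11*, and between *Slc5a9* and *Slc5a6*. In *c-Maf*ΔTAM kidneys *Slc5a10* came first at 49.1 ± 6.68 CPM per kb, followed by *Slc5a8* (33.2 ± 14.5) and *Slc5a12* (29.9 ± 3.73), and the range of *Slc5a8* overlapped those of both. *Slc5a2* had moved from rank 1 to rank 6, at 8.47 ± 4.57 CPM per kb, below *Slc5a1* (19.3 ± 2.49) and overlapping the ranges of *Slc5a11* (12.7 ± 2.68), *Slc5a9* (7.97 ± 0.908), and *Slc5a6* (5.85 ± 1.61) over the 4 mice. *Slc5a6* had the lowest mean in both genotypes. With only the exonic bases that lie in no other gene as the length, the ranks of the 8 means were the same in both genotypes, but some overlaps turned. *Slc5a2* was then at 139.7 ± 7.51 CPM per kb in controls, from 131 to 147 and above every control value of *Slc5a12*. In the knockouts it was at 10.7 ± 5.75 CPM per kb, from 3.56 to 16.7, which also overlapped the range of *Slc5a1* (15.8 to 21.5). Within single *c-Maf*ΔTAM kidneys *Slc5a2* was below *Slc5a1* in 4 of 4 with either length, below *Slc5a11* in 4 with all exonic bases and 3 with the countable ones, and below *Slc5a9* and below *Slc5a6* in 2 and 1, so its order against the last 3 depends on the length used.

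The members summed to 346, 360, 344, and 316 CPM per kb in the controls and to 176, 167, 158, and 164 in the *c-Maf*ΔTAM kidneys. *Slc5a2* and *Slc5a12* made up 32.5% ± 1.82 and 28.6% ± 6.22 of this sum in control kidneys, and 5.15% ± 2.83 and 18.0% ± 2.55 in *c-Maf*ΔTAM kidneys (SD, n = 4 each). With the countable bases as the length, the shares of *Slc5a2* were 36.5% ± 1.83 and 6.02% ± 3.30. The sum was smaller in *c-Maf*ΔTAM kidneys, and the shares of the other 6 members were larger, such as that of *Slc5a10*, with 29.5% ± 3.05 against 17.6% ± 2.98.

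**Figure D5:**
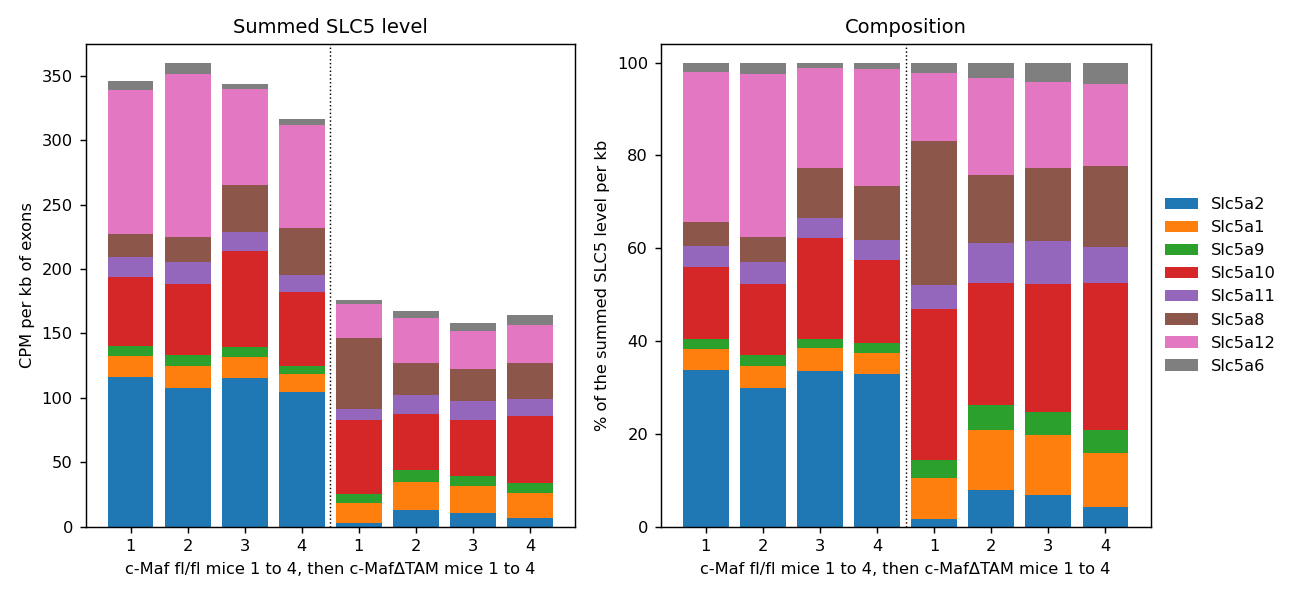
Summed level of the 8 members in CPM per kb of exons (left) and the share of each member in percent of that sum (right), 1 bar per mouse. The 4 c-Maf fl/fl kidneys sum to between 316 and 360 CPM per kb and the 4 c-MafΔTAM kidneys to between 158 and 176, and the blue part (Slc5a2) shrinks in all 4.

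Each member was also set against 10 markers of the early proximal tubule. That list was not steady itself, since 3 of its genes fell (*Slc34a1*, *Gatm*, and *Ass1*), none rose, and its median log2 fold change was -0.77. *Slc5a2* fell further than the mean of the markers, from -1.86 ± 0.126 to -4.59 ± 0.644 on the log2 scale (SD, n = 4 each; difference -2.74, two-sided exact permutation test, adjusted *P* = 0.0327), whereas *Slc5a12* changed by -0.51 relative to it (adjusted *P* = 0.114). The other 6 members were higher relative to the marker mean, by 0.89 to 1.44, each with an adjusted *P* of 0.0327 in the same exact permutation test. The fall of the marker mean itself enters these values. None of these 6 members passed the genotype test over all mice, so the values are not read as gains of the members. Against the median of the markers the values were -3.51 for *Slc5a2*, -1.28 for *Slc5a12*, and 0.12 to 0.67 for the others. There *Slc5a2*, *Slc5a12*, and *Slc5a1* did not overlap between the genotypes and had the smallest *P* that the exact permutation test can give, 0.0286, but with only 3 of the 8 members at that value it becomes 0.0762 after adjustment. No marker list of the late proximal tubule (6 genes), podocyte (5), macrophage (5), collecting duct (7), distal convoluted tubule (4), or thick limb (5) had a gene that passed the test over all mice. With *Xist* class as a factor *Slc22a19* (0.61, edgeR adjusted *P* = 0.00453) and *Slc7a13* (-0.57, adjusted *P* = 0.0119) of the late proximal list passed in opposite directions, *Pvalb* of the distal convoluted list fell, and *Slc13a3* (-1.06, edgeR adjusted *P* = 7.56e-06) joined the early markers that fell. Of the 10 early proximal markers, *Lrp2* and *Slc13a3* were lower and *Slc22a6* was higher in low-*Xist* mice. The reference itself therefore moved with *Xist* class. For *Slc22a8* the genotype effect had a log2 difference of -2.51 between the *Xist* classes. The only low-*Xist* knockout is mouse 1, so this value cannot tell *Xist* class from that single mouse. Mouse 1 measured 31.9 CPM of *Slc22a8*, against 250 to 296 CPM in the other knockouts and 337 to 545 CPM in the controls. Low-*Xist* mice had lower levels of all 5 podocyte markers, 3 thick limb, 3 collecting duct, and 1 distal convoluted marker, and no macrophage marker passed in either fit. The late proximal list had a median log2 fold change of -0.28, and the macrophage list summed to 87.7 to 92.8 CPM in knockout and 78.6 to 84.4 CPM in control kidneys. The part of these lists in the results for *Slc5a2* and *Slc5a12* was not tested.

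The 5 genes whose log2 CPM followed *Slc5a2* most closely over the 8 mice were *Cela1*, *Igsf11*, *Car14*, *Slc34a3*, and *Gatm*, with Pearson's r from 0.995 to 0.999. These genes were picked by that correlation, so a like order of the mice follows from the choice and is no separate finding. All 5 had their lowest value in *c-Maf*ΔTAM mouse 1 and their highest *c-Maf*ΔTAM value in mouse 2, as did *Slc5a2*. *Maf* was at rank 15 with r = 0.989. *Slc5a12* was the member most like *Slc5a2* (r = 0.947, rank 130), followed by *Slc5a11* (r = 0.739), and *Slc5a1* had the lowest value (r = -0.47). These coefficients describe 8 mice of 2 genotypes that share the genotype difference and the library scaling, and carry no test.

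RefSeq start sites on GRCm38.p6 were given for 5 of the 8 members, with 7 windows of 300 bases from 250 before to 50 after the start. *Slc5a2*, *Slc5a9*, and *Slc5a12* were not among them. Both strands were searched for the half-MARE core TGCTGA, which large Maf proteins contact, for the TRE core TGACTCA, and for the CRE core TGACGTCA. Of all 32851 windows of this length, 19.5% hold the half-MARE core, 5.20% the TRE core, and 1.79% the CRE core. Among the members' windows, 2 of 7 held the half-MARE core and none the other motifs. Those 2 windows are shown because they are the only ones of the members with a match; capitals mark the matches.
*Slc5a10*, chr11:61720750-61721049, reverse strand: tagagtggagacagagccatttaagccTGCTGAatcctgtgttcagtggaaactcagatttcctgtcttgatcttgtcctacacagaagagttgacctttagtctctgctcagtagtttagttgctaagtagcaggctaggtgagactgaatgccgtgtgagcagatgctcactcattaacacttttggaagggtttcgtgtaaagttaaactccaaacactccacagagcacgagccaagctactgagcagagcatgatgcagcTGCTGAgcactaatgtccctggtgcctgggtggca
*Slc5a11*, chr7:123214616-123214915, forward strand: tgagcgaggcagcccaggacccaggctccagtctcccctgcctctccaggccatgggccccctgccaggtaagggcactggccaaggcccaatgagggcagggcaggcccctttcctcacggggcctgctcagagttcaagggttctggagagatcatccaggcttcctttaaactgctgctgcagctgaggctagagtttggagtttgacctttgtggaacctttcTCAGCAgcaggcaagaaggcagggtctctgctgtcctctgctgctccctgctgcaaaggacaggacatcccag
In the *Slc5a10* window the half-MARE core starts 223 bases before and again 15 bases after the start site. In the *Slc5a11* window the core is on the other strand and reads TCAGCA, 23 bases before the start. Neither gene passed the test over all mice.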

How the data were processed

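Kidney RNA-Seq of 4 *c-Maf*ΔTAM and 4 *c-Maf* fl/fl mice was grouped by the labels, 1 mouse per replicate. The authors deposited raw counts for each gene name, obtained with featureCounts from exons of the Ensembl annotation (release 102) of GRCm38; the file header gives version 2.0.1 and the submitters' processing notes Subread 2.0.2. The header counts each mate as a read, ignores strand although the library kit was directional, and omits reads on exons of more than 1 gene. The aligner is not given in the sources used here. The study's own analysis with CLC Genomics Workbench starts from reads and was not repeated. No column of per-sample values was left unused.

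Genes kept by filterByExpr (20149) were scaled by TMM and tested in R 4.3.3 with edgeR 4.0.16 (robust quasi-likelihood, genotype only, Benjamini-Hochberg adjusted *P* under 0.05) over all genes. SE was derived from the fold change and its F value. Log2 CPM values used a prior count of 2, and CPM per kb divides by exonic length. Ratios were tested by exact permutation over 70 assignments of the mice, adjusted over the members compared. Members and lists were chosen with earlier results of these data known. Named genes were *Maf*, each member, pathway genes that passed the test, the 2 most abundant genes of each pathway list, and the 5 genes most correlated with *Slc5a2*. Some genes that this rule names are not reported here. Alternatives were factors by RLE or by upper quartile, limma-trend (limma 3.58.1) after quantile normalization, edgeR's exact test, DESeq2 1.42.0, other filters, the replicate number as a block, *Xist* as a covariate, the 5 high-*Xist* mice, omission of mitochondrial and ribosomal RNA genes, an adjusted *P* under 0.01, and each mouse left out. *Xist* class as a factor, its interaction with genotype, proximal markers without those that fell, and a length of exonic bases in no other gene were added after the data had been seen. Tested on simulated counts of this comparison (19732 genes, 200 changed), the quasi-likelihood test recovered 93% of 4-fold and 76% of 2-fold changes, and 15 of its 184 calls were false. Intervals reflect 8 mice; precision is set by the 16649129 to 22990257 counts per mouse and the spread between mice. All pairs of mice within a genotype differed beyond sampling noise.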

Additional observations from a re-analysis of the deposited data

Results flagged for a closer look

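In 2 of 16 groups of 4 mice, 1 kidney stood apart from the other 3 by more than Dixon's 95% critical value for the gap divided by the range; about 1 in 20 groups does so by chance, or 0.8 of 16. *Slc5a8* in *c-Maf*ΔTAM mice had a ratio of 0.870 for the highest mouse, mouse 1, at 292 CPM against 131 to 152 CPM. *Slc5a10* in *c-Maf* fl/fl mice had a ratio of 0.840 for the highest mouse, mouse 3, at 176 CPM against 127 to 135 CPM. Both are low-*Xist* mice.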

How the results depend on the processing

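*Slc5a2* and *Slc5a12* passed an adjusted *P* of 0.05 in the same direction in every alternative run and with each mouse left out, with log2 fold changes of -4.02 to -3.42 and -1.94 to -1.57. The count of members that passed (2) became 4 with the *Xist* level as a covariate and 4 with *Xist* class as a factor, and 1 at an adjusted *P* under 0.01, where *Slc5a2* (0.0101) was lost. In the 5 high-*Xist* mice *Slc5a8* passed as well. The count was 2 in each fit without 1 mouse. The pathway genes that passed (6) became 10 with *Xist* class, 0 with the replicate block, and 5 to 6 without 1 mouse. Over all genes, the 436 calls became 836 with DESeq2, 129 with the replicate block, 1374 with the *Xist* covariate, 1506 with *Xist* class, 789 in the 5 high-*Xist* mice, and 180 at an adjusted *P* under 0.01, and 239 to 452 without 1 mouse; the cause was not tested. Values that changed sign without passing the test were *Slc5a6* under quantile normalization (0.0016) and without *c-Maf*ΔTAM mouse 1 (0.090) or *c-Maf* fl/fl mouse 2 (0.19), and *Slc5a8* without *c-Maf*ΔTAM mouse 1 (-0.088); with 1 mouse left out, *Slc5a6* ranged from -0.22 to 0.19 and *Slc5a8* from -0.088 to 0.43. Of the 8 members set against the proximal markers, 7 passed with the mean, 7 with a prior count of 0.5, and 0 with the median, where *Slc5a2* (-3.51) and *Slc5a12* (-1.28) had the smallest exact *P*, 0.0286, and the adjustment over 8 members with 3 at that value gives 0.0762. Without the 3 markers that fell 5 passed, but that reference was chosen by the genotype change itself, and nothing is read from it. With 1 mouse left out the smallest exact *P* is 0.0571, so those fits give values only. With exonic bases in no other gene as the length, *Slc5a2* in controls and *Slc5a10* in both genotypes moved by more than 1 SD. The 7 ratios of *Slc5a2* passed at both prior counts. The replicate numbers did not pair the mice (correlations of same-numbered mice -0.37, 0.15, -0.11, and -0.33, with 1 of 4 highest for its own number); with the replicate block *Slc5a2* was at -3.89 (adjusted *P* = 0.0412) and *Slc5a12* at -1.69 (edgeR adjusted *P* = 0.00663).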
